A study of Mus musculus with 15 samples.

Results

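Dbp, Tef, Hlf, Nfil3, Bhlhe40, Bhlhe41 and Rora are the clock output transcription factors, 7 of the 23589 loci with a gene name in the deposited table. They were chosen by gene symbol, and each matched 1 locus. RNA of male C57BL/6 mice under 3 feeding regimens was taken from hypothalamus, hippocampus, liver, colon and epididymal fat. Mice fed ad libitum (AL) were 5 months old, and mice under dietary restriction (DR) had 40% less food for 1 month from the age of 4 months. The third set (DR-AL) had the same month of restriction and then 2 months of free feeding, and was 7 months old. Age and refeeding can therefore not be told apart in any comparison with DR-AL. RNA of 5 mice was pooled into 1 library for each diet in a tissue, so no replicate check was possible and each comparison set 2 libraries side by side.

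The circadian clock is a loop in which Arntl and Clock drive the Per and Cry genes through E-boxes, and the Per and Cry proteins in turn block that drive. Dbp is switched on by the same route, and with Tef and Hlf it activates genes through the D-box, which the repressor Nfil3 also binds. Bhlhe40 and Bhlhe41 repress at E-boxes, while Rora activates at the ROR element that the Nr1d receptors silence. Most of these genes follow a daily rhythm, and a level read once depends on the hour. The hour of sacrifice and the hour of feeding are not given in the sources used here.

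Levels are given as CPM, counts scaled to a total of 1000000 on named loci. In liver the totals before scaling were 24734599, 21767088 and 24495419 counts in AL, DR and DR-AL, the order of every set of 3 values here. In epididymal fat the totals were 26217345, 22829358 and 27357403, in colon 26554699, 33422262 and 25043727, in hypothalamus 29673910, 32745522 and 31204690 and in hippocampus 40500130, 31224299 and 25159857. A locus was called where a Z test on square roots of scaled counts gave a Benjamini-Hochberg adjusted p under 0.05 and the higher value exceeded the lower by at least 25%. Each log2 fold is followed by its 95% exact interval, which covers counting error only and not the spread between mice.

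Marker genes matched the tissue labels. Hepatocyte markers summed to 56782, 65021 and 52624 CPM in liver, with Apoa1 the most abundant and Alb at 0 in all libraries. Adipocyte markers, led by Fabp4, summed to 41248, 34992 and 28102 CPM in fat (3 of 8 lower in DR, 6 of 8 in DR-AL), and colon epithelium markers, led by Lypd8, to 35802, 35505 and 35714 CPM in colon. Hypothalamus markers, led by Avp, summed to 1064, 948 and 878 CPM in the hypothalamus, and the hippocampus list, led by Slc17a7, to 2039.7, 2048 and 1855 CPM in the hippocampus. Avp alone had 471, 267 and 158 CPM in the hypothalamus, 44.3%, 28.2% and 17.9% of the sums there. Of the 9 hypothalamus markers 4 were higher and 2 lower in DR than in AL. The fat libraries also held RNA of genes that mark other tissues. Hepatocyte markers there summed to 13957, 5309 and 4122 CPM (9 of 10 lower in DR and in DR-AL than in AL, Cyp2e1 the most abundant). Cyp2e1 alone made up 62.2%, 98.7% and 99.5% of those sums, so the other hepatocyte markers were nearly confined to AL fat, with Apoa1 at 1221, 11.5 and 2.96 CPM. Testis germ cell markers in fat summed to 6.98, 640.0 and 3056 CPM (9 of 9 higher in DR and in DR-AL, led by Prm2), and epididymis markers, led by Crisp1, to 909, 3216 and 5141 CPM (8 of 8 higher in DR, 6 of 8 in DR-AL). Between DR and DR-AL only 3 of the 8 epididymis markers were higher and 5 were lower, and Crisp1 made up 93.1%, 87.1% and 89.2% of the sums. Smooth muscle markers, led by Myh11, summed to 1142, 2789 and 904 CPM in fat (5 of 6 higher in DR than in AL, 5 of 6 lower in DR-AL than in DR), and in colon, led by Tagln, to 53.6, 63.5 and 28.3 CPM (5 of 6 lower in DR-AL than in AL). That order of diets is also the order of Dbp in both tissues. In bulk tissue, fewer cells of a type and less RNA in each cell cannot be told apart, and the part of these cells in the values for fat and colon was not tested.

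Under DR the PAR bZIP activators and the bHLH repressors had values above AL in liver and fat, called for all but Hlf in liver, and Nfil3 was called lower. Over the 5 tissues, 13 of 35 pairs of member and tissue were called higher in DR and 3 lower. In liver 4 of 7 members were higher (Dbp, Tef, Bhlhe40 and Bhlhe41) and 1 lower (Nfil3), where 18.04% of all loci tested were called higher and 9.92% lower. In fat 5 of 7 were higher (the same with Hlf) and Nfil3 was lower, where 35.2% of all loci tested were called higher and 10.4% lower. The median log2 fold of the members was 0.45 against 0.10 for all tested loci in liver, and 0.97 against 0.23 in fat. Colon had 1 member higher (Dbp) and 1 lower (Rora), where 9.04% of all loci tested were called higher and 10.6% lower. The hypothalamus had 3 members higher (Dbp, Hlf and Rora) and 0 lower, where 4.33% of all loci tested were called higher and 2.72% lower. The hippocampus had 0 members called, where 1.36% of all loci tested were called higher and 2.67% lower. The medians were 0.02 against 0.00 in colon, 0.23 against 0.01 in hypothalamus and 0.13 against −0.01 in hippocampus. Left without the fat libraries, 8 of 28 pairs were higher and 2 lower.

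The split of calls over all loci depended on scaling in 2 of these tissues. In liver 64.5% of the DR calls were higher with totals, against 50.6% with size factors computed as in DESeq2 and 50.1% with TMM, the scaling of edgeR. In fat the shares were 77.3%, 61.2% and 58.0%. In fat the median log2 fold of 17306 loci averaging 10 counts or more was 0.24 in DR with totals and 0.05 with size factors, while the members' calls changed for only Tef in fat and Rora in hypothalamus, both of which were lost.

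After 2 months of free feeding the PAR bZIP activators and the bHLH repressors had values below AL in liver and fat, called for all but Hlf in fat. In DR-AL 15 of 35 pairs were called lower than in AL and 3 higher. Liver had 5 of 7 members lower (Dbp, Tef, Hlf, Bhlhe40 and Bhlhe41) and Nfil3 higher, where 15.04% of all loci tested were called higher and 15.8% lower. Fat had 5 of 7 lower (Dbp, Tef, Bhlhe40, Bhlhe41 and Rora) and 0 higher, although 46.04% of all loci tested were called higher and 11.9% lower. The members' median log2 fold was −0.82 against 0.00 for all tested loci in liver and −0.43 against 0.39 in fat. Colon had 3 lower (Dbp, Tef and Rora) and 0 higher, where 5.83% of all loci tested were called higher and 8.50% lower. In hypothalamus Dbp was lower and Rora higher, where 6.06% of all loci tested were called higher and 9.02% lower. In hippocampus Dbp was lower and Nfil3 higher, where 3.99% of all loci tested were called higher and 2.16% lower. The medians were 0.00 against −0.01 in colon, −0.11 against −0.03 in hypothalamus and −0.11 against 0.00 in hippocampus. Of the fat loci called in this comparison 79.5% were higher with totals, against 57.5% with size factors and 49.0% with TMM, which alone left fewer loci higher than lower. With size factors or TMM Hlf and Nfil3 in fat were also called lower. The median fold of the same 17306 loci was 0.34 with totals and 0.00 with size factors.

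The comparison of DR-AL with DR shares its libraries with the other 2 and held the most calls, 18 of 35 lower and 3 higher. In liver 5 of 7 members were lower and Nfil3 higher, where 16.9% of all loci tested were called higher and 23.96% lower. Of the liver loci called 41.3% were higher with totals, 51.1% with size factors and 51.0% with TMM. In fat 6 of 7 were lower and Nfil3 higher, where 38.3% of all loci tested were called higher and 13.3% lower. In colon Dbp and Tef were lower and Nfil3 higher, where 6.78% of all loci tested were called higher and 7.67% lower. The brain regions held lower calls only. In hypothalamus these were Dbp, Hlf and Bhlhe41, where 2.82% of all loci tested were called higher and 6.80% lower. In hippocampus these were Dbp and Bhlhe40, where 3.63% of all loci tested were called higher and 1.26% lower. The median log2 fold of the members was −1.57 against −0.11 for all tested loci in liver, −1.39 against 0.28 in fat, −0.35 against −0.02 in colon, −0.30 against −0.03 in hypothalamus and −0.19 against 0.01 in hippocampus. Of the fat loci called 74.3% were higher with totals, 62.9% with size factors and 54.0% with TMM, and the median fold of the same 17306 loci was 0.24 with totals and 0.09 with size factors. With the dispersion that edgeR estimated from each tissue without regard to diet, 3 of the 55 calls over the 3 comparisons held, and all were Dbp in DR-AL against DR, in liver, colon and hippocampus.

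**Figure D1:**
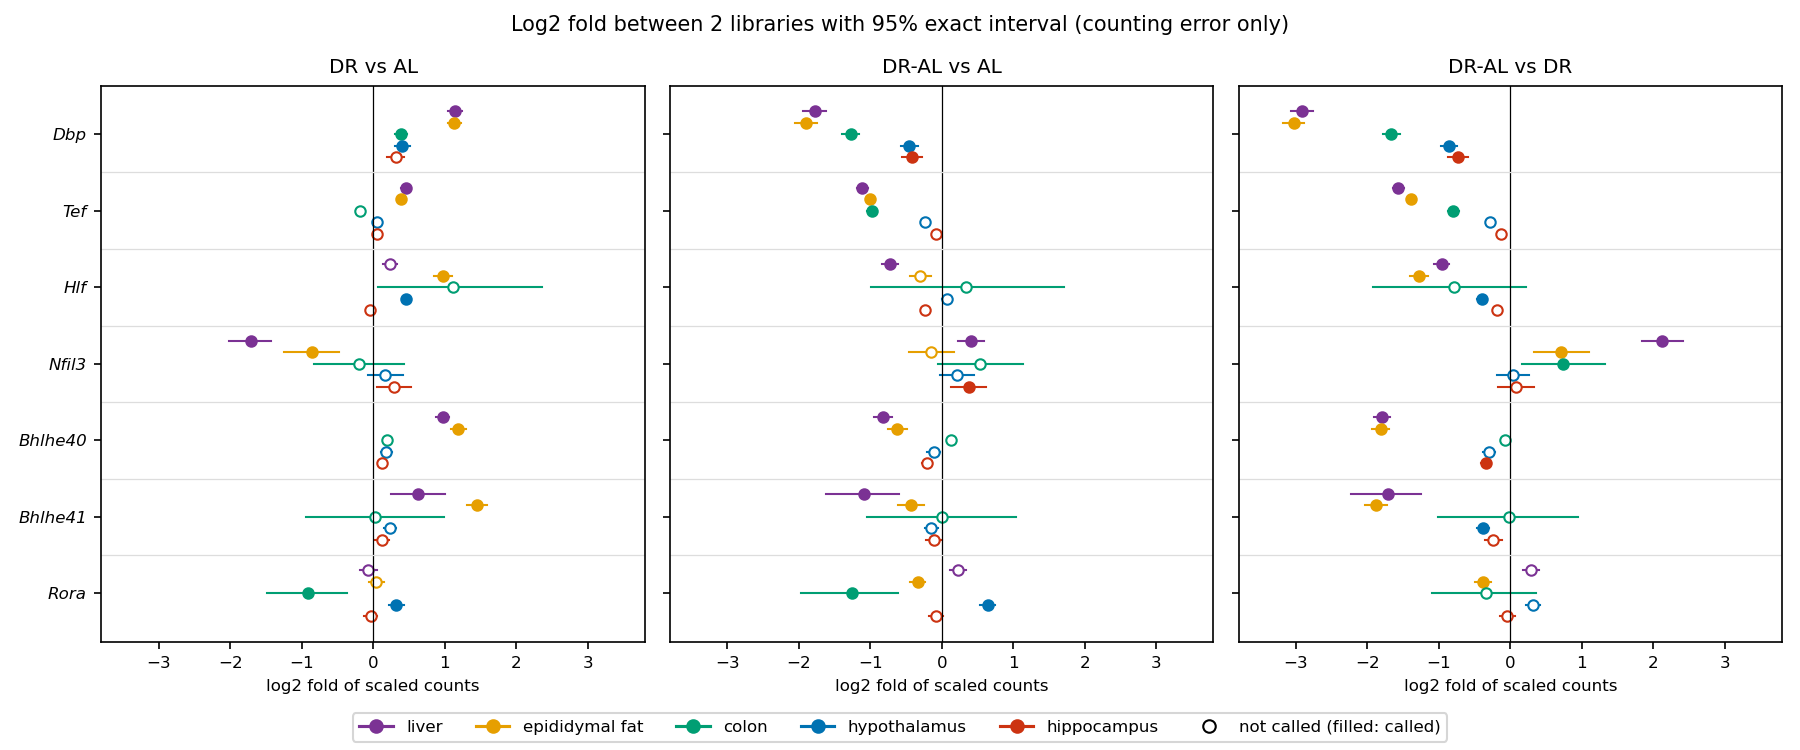
Log2 fold of each member between 2 libraries of a tissue, with the exact interval for counting error. Filled points were called.

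Dbp, the D-box activator most closely tied to the clock, had the widest swing of the members in liver and fat. In liver its CPM was 57.3, 127 and 16.8 in AL, DR and DR-AL, in fat 57.9, 127 and 15.6, and in colon 74.7, 97.9 and 30.9. In hypothalamus it was 40.7, 54.1 and 29.8, and in hippocampus 31.0, 38.6 and 23.3. DR was the highest and DR-AL the lowest in 5 of 5 tissues under each scaling tried, including the FPKM of the authors. In liver the log2 fold of DR over AL was 1.14 (1.05 to 1.24), and of DR-AL over AL −1.77 (−1.93 to −1.61), both called. In fat DR over AL was 1.14 (1.05 to 1.23) and DR-AL over AL −1.89 (−2.05 to −1.74), both called. From FPKM these 2 were 0.30, under the threshold, and −3.43. In fat the FPKM of 10028 well counted loci put the folds lower than CPM did, by a median of 0.73 for DR over AL, 1.62 for DR-AL over AL and 0.88 for DR-AL over DR, so folds of every member in fat depend on the unit. Colon showed a smaller rise in DR, 0.39 (0.31 to 0.47), and a fall in DR-AL, −1.27 (−1.39 to −1.15). In hypothalamus DR was higher by 0.41 (0.30 to 0.52) and DR-AL lower at −0.45 (−0.58 to −0.33). In hippocampus the value in DR, 0.31 (0.20 to 0.43), was not called (0.39 and over the threshold from FPKM), and DR-AL was lower at −0.42 (−0.56 to −0.27). The fall from DR to DR-AL was −2.92 (−3.07 to −2.77) in liver, −3.03 (−3.18 to −2.88) in fat, −1.66 (−1.78 to −1.55) in colon, −0.86 (−0.98 to −0.74) in hypothalamus and −0.73 (−0.87 to −0.59) in hippocampus. The swing was thus widest in liver and fat and narrowest in the brain. In the table Dbp lies in 1 interval with Sphk2 on the other strand, and Sphk2 had 76.1, 104 and 68.7 CPM in liver and 55.4, 96.7 and 46.8 in fat. Libraries kept the strand of the RNA, per the authors, and how well the counts of these 2 genes were kept apart was not tested.

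**Figure D2:**
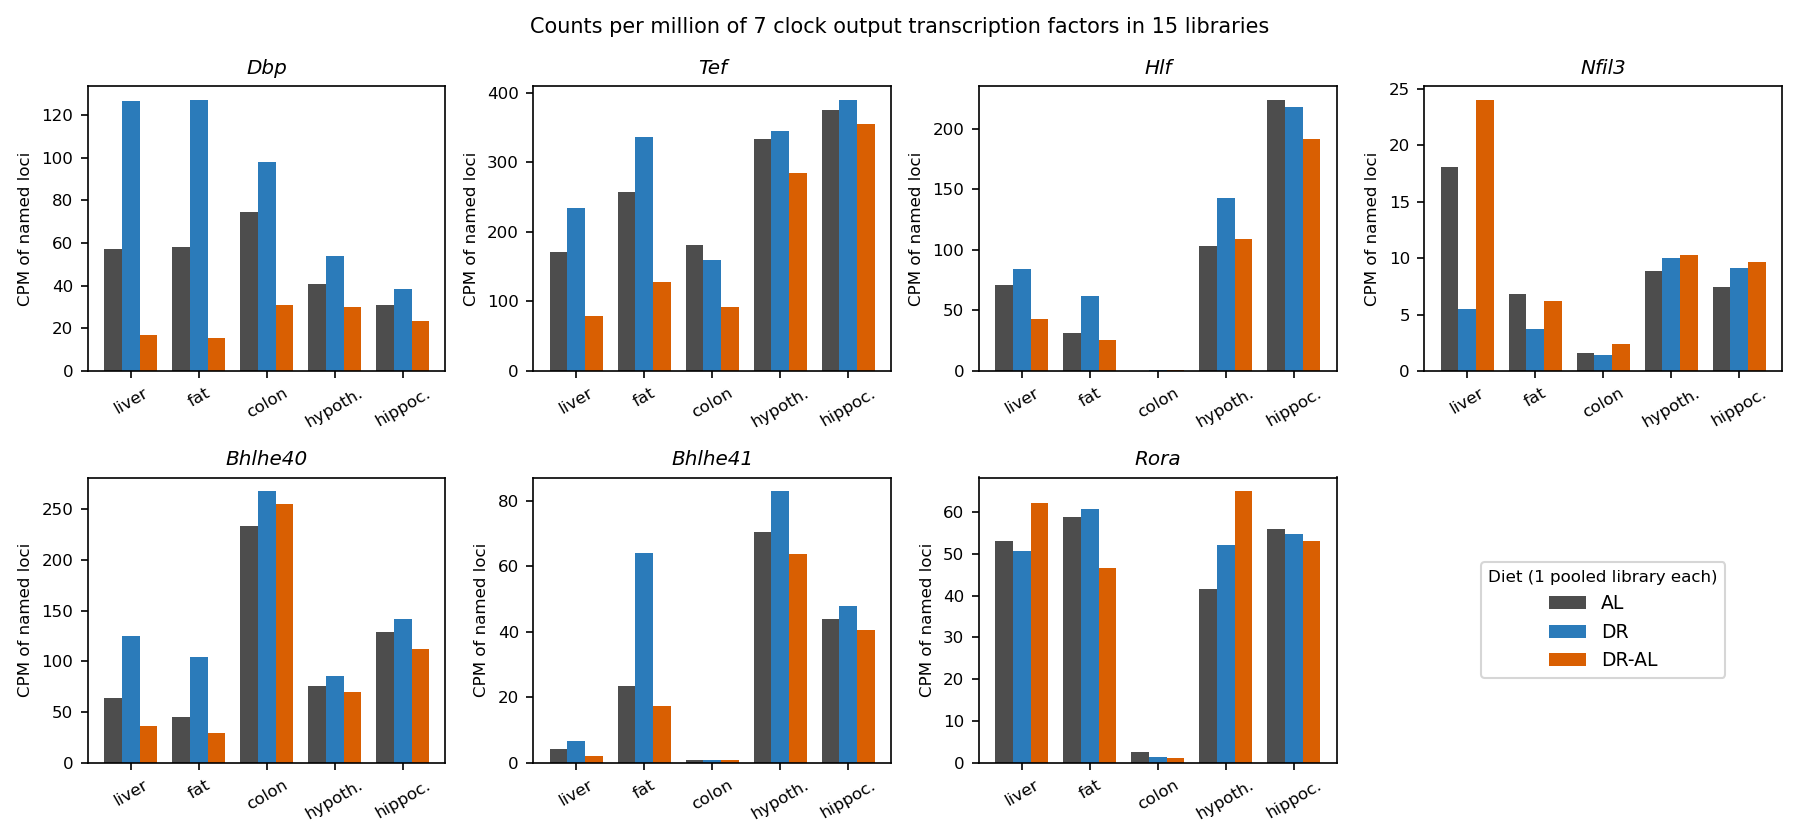
CPM of each member in the 15 libraries, by tissue and diet. Each bar is 1 library of RNA pooled from 5 mice.

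Tef, the second PAR bZIP activator, followed Dbp in liver and fat. Its CPM was 171, 235 and 79.2 in liver, 257, 337 and 128 in fat and 181, 159 and 91.8 in colon. In hypothalamus it was 334, 345 and 285 and in hippocampus 375, 390.0 and 355. DR-AL was the lowest of the 3 in 5 of 5 tissues. In liver Tef was higher in DR, at 0.45 (0.40 to 0.51), and lower in DR-AL than in AL, at −1.11 (−1.19 to −1.04). In fat the rise in DR was 0.39 (0.34 to 0.44) and the fall in DR-AL −1.001 (−1.06 to −0.94). From FPKM the rise in liver was 0.29, under the threshold, and the values in fat were −0.33 and −2.60. In colon only the DR-AL library stood apart, at −0.98 (−1.05 to −0.91) against AL and −0.80 (−0.87 to −0.72) against DR. No value for Tef in the brain was called, and DR-AL over AL was −0.23 in hypothalamus and −0.08 in hippocampus. By mean CPM over diets, Tef was highest in hippocampus, then hypothalamus, fat, liver and colon, although colon lay above liver in AL and in DR-AL. The order turned with the unit, as by mean FPKM liver was highest, at 76.1 against 71.4 in hippocampus, and fat lowest, at 27.1. On CPM its 3 hippocampus values all lay above its 3 hypothalamus values.

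Hlf, the third PAR bZIP activator, is mainly a brain and liver gene and was near absent from colon. Its CPM was 71.1, 83.9 and 43.1 in liver, 31.5, 61.9 and 25.6 in fat, 103, 143 and 109 in hypothalamus and 224, 218 and 191 in hippocampus. In colon it had only 10, 28 and 12 counts, and no fold there was called. DR over AL in colon, 1.12 (0.07 to 2.36), was called when only loci with a mean of at least 10 counts were tested, and passed the fold threshold on FPKM, as did DR-AL over DR. In liver Hlf was not called in DR, at 0.24 (0.14 to 0.33), and was lower in DR-AL than in AL, at −0.72 (−0.83 to −0.61). In fat it was higher in DR, at 0.97 (0.85 to 1.10), and lower in DR-AL than in DR, at −1.28 (−1.41 to −1.15). From FPKM the first of these was 0.30, under the threshold, and the second −2.10. Hypothalamus had the same form with smaller folds, 0.47 (0.40 to 0.53) in DR over AL and −0.40 (−0.46 to −0.33) in DR-AL over DR, the second −0.29 and under the threshold from FPKM. Of the 7 hippocampus markers, 4 were higher and 1 lower in the hypothalamus in DR than in AL. In DR-AL 1 was higher and 4 lower than in DR, and their sum was 239.5, 216.0 and 154.5 CPM. Wfs1 alone had 189.5, 135.8 and 102.7 CPM, 79.1%, 62.9% and 66.5% of those sums. The rest of the sum was highest in DR, as Hlf was there. The part of dissection in the Hlf values was not tested. In hippocampus, its highest tissue, no value was called and DR over AL was −0.04.

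Nfil3 binds the same D-box as a repressor, and in liver it ran opposite to the activators. Its CPM was 18.1, 5.51 and 24.0 in liver, 6.83, 3.77 and 6.18 in fat and 1.62, 1.41 and 2.36 in colon. In hypothalamus it was 8.86, 9.99 and 10.3 and in hippocampus 7.41, 9.10 and 9.62. DR-AL was thus the highest in 4 of 5 tissues, all but fat. In liver DR was the lowest and DR-AL the highest, with log2 folds against AL of −1.71 (−2.02 to −1.42) and 0.41 (0.23 to 0.59), both called, and 2.12 (1.84 to 2.42) between DR-AL and DR. In fat Nfil3 was lower in DR, at −0.85 (−1.25 to −0.48), and higher in DR-AL than in DR, at 0.71 (0.33 to 1.11). From FPKM these were −1.49 and −0.09, the second a turn of direction. In colon the step from DR to DR-AL was called, at 0.74 (0.17 to 1.33), on 47 and 59 counts. Leukocyte markers in colon had the same order of diets, with sums of 19.4, 9.19 and 30.9 CPM. Of these 6 markers, 6 were higher in DR-AL than in DR, and their part in the Nfil3 value was not tested. In hippocampus DR-AL was above AL at 0.38 (0.13 to 0.63), and in hypothalamus no value was called. On FPKM, DR over AL in hippocampus (0.40) and DR-AL over AL in colon (0.56) also passed the fold threshold.

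Levels of different genes were compared on FPKM, which takes gene length into account, as mRNA only. The FPKM of Dbp over that of Nfil3 was 4.84, 33.4 and 1.06 in AL, DR and DR-AL liver, and 11.8, 44.0 and 3.46 in fat. In colon it was 68.9, 112 and 19.4, in hypothalamus 6.28, 7.52 and 4.03 and in hippocampus 6.29, 6.23 and 3.40. Nfil3 thus came level with Dbp in the DR-AL liver, but not with the 3 PAR bZIP activators together, at 83.2 FPKM against 26.1 for Nfil3. Within the PAR bZIP trio, Dbp made up 45.5, 57.7 and 33.1% of the summed FPKM in liver, 37.8, 47.1 and 23.9% in fat and 57.4, 68.3 and 52.2% in colon. In hypothalamus its share was 21.5, 24.99 and 18.2% and in hippocampus 14.5, 16.8 and 11.5%. Tef led the trio in both brain regions in each library, and Dbp led it in AL and DR liver, in DR fat and in all 3 colon libraries. These ratios are 1 value a library and were not tested.

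Bhlhe40 is an E-box repressor that also answers to signals outside the clock. Its CPM was 63.6, 125 and 36.0 in liver and 45.4, 104 and 29.5 in fat. Colon, its highest tissue, had 234, 268 and 255 CPM, hypothalamus 75.3, 85.7 and 69.6 and hippocampus 129, 142 and 112. In liver Bhlhe40 rose in DR by 0.98 (0.89 to 1.07) and was lower in DR-AL than in AL at −0.82 (−0.94 to −0.70). In fat it rose in DR by 1.19 (1.09 to 1.30) and was lower in DR-AL at −0.62 (−0.75 to −0.49), with 0.46 and −2.17 from FPKM. In colon none of its values was called, although Dbp and Tef were lower there in DR-AL. In the brain its single call was in hippocampus, DR-AL below DR at −0.33 (−0.40 to −0.27).

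Bhlhe41, the close relative of Bhlhe40, was scarce in colon and liver. Its CPM was 4.29, 6.62 and 2.0004 in liver, 23.4, 64.0 and 17.4 in fat and 0.678, 0.688 and 0.679 in colon. Hypothalamus, its highest tissue, had 70.6, 83.0 and 63.9 CPM and hippocampus 43.9, 47.9 and 40.7. Fat held its strongest rise in DR, 1.45 (1.31 to 1.59), with DR-AL below AL at −0.43 (−0.61 to −0.25), and 0.66 and −1.97 from FPKM. In liver it rose in DR by 0.62 (0.25 to 1.002) and was lower in DR-AL than in AL at −1.09 (−1.62 to −0.60). In hypothalamus DR-AL was below DR at −0.38 (−0.46 to −0.29) (−0.27 from FPKM, under the threshold), and in hippocampus no value was called. The pair of repressors thus moved with Dbp in liver and fat.

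Rora, the activator at the ROR element, did not share the form of the other members. Its CPM was 53.0, 50.6 and 62.1 in liver, 58.7, 60.7 and 46.5 in fat and 2.60, 1.38 and 1.08 in colon. In hypothalamus it was 41.6, 52.2 and 65.0 and in hippocampus 56.0, 54.8 and 53.1. Liver and hippocampus had no call for Rora, although DR-AL over DR in liver, 0.29 (0.18 to 0.41), was called higher with size factors and TMM. In hypothalamus it was higher in DR than in AL by 0.33 (0.22 to 0.43), and higher in DR-AL than in AL by 0.64 (0.54 to 0.75), while DR-AL over DR, 0.32 (0.22 to 0.41), was not called with totals. From FPKM the first was 0.27, under the threshold, and the last 0.43, over it, and size factors and TMM also called the last one. Genes of the neighbouring thalamus moved there in DR-AL, 5 of 6 higher than in AL, against 1 higher and 1 lower in DR. Their sum was 94.7, 118 and 198 CPM, with Rgs16 at 23.1, 51.0 and 39.3 CPM there and 64.8, 521 and 25.3 in liver, and the higher sum in DR came from Rgs16. In DR-AL 4 of the 9 hypothalamus markers were higher than in AL and 4 lower. The part of dissection in the Rora values was not tested. In fat Rora was lower in DR-AL than in AL, at −0.34 (−0.45 to −0.23), and at −1.84 from FPKM. In colon it was lower in DR, at −0.91 (−1.49 to −0.36), and in DR-AL, at −1.26 (−1.97 to −0.61), on 69, 46 and 27 counts. The table gives the locus 9530091C08Rik the same interval and strand as Rora, with 1.996, 2.005 and 2.60 CPM in colon, so the split of colon reads between them is uncertain. From FPKM the colon folds of Rora were −0.53 and −0.75, over the threshold, when 0.1 was added, as elsewhere here. With 1 added, which is more than the FPKM of Rora in colon, they shrank to −0.14 and −0.18.

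A fit over all 15 libraries asked whether a member changed alike in the 5 tissues, with tissue and diet as terms and 8 residual degrees of freedom. Its p measures the spread of the diet effect over tissues, not over mice. In edgeR 0 of 7 members were called between DR and AL at adjusted p under 0.05 (0.00610% of loci), 0 between DR-AL and AL (0% of loci) and 0 between DR-AL and DR (0.00610% of loci). At unadjusted p under 0.05 edgeR had 1 member in the first (Hlf), 2 in the second (Dbp and Tef) and 6 in the third (all but Rora), beside 3.59%, 4.58% and 3.76% of all loci. With 1 tissue left out, Hlf passed in the first only without hippocampus, and no other member did. DESeq2 had 3 in the first (Dbp, Hlf and Bhlhe40) and the same members as edgeR in the others, beside 4.83%, 6.18% and 4.57% of loci. DESeq2 called 0, 0 and 1 members at adjusted p under 0.05, beside 0.120%, 0.115% and 0.102% of loci. That member was Dbp between DR-AL and DR, with a log2 fold in edgeR of −1.79, and of −2.07 to −1.47 with any 1 tissue left out. Its adjusted p was 0.694 in edgeR and ran from 0.000124 in DESeq2 to 1.000 over the 8 alternatives. No other member was called by either tool.

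Most members went together, and Nfil3 against them, once the mean of each tissue was removed from log2 CPM. The 15 libraries share that removal, 3 libraries a tissue, and the same pools of mice, so these Pearson correlations are a description only. Dbp and Tef had a correlation of 0.97, and Bhlhe40 and Bhlhe41 also 0.97. Nfil3 stood at −0.74 with Dbp and −0.81 with Bhlhe40. Rora was near none of them, with 0.15 to Dbp. Among 7872 loci with a mean of at least 100 counts in each tissue, the locus most like Dbp was Gm129, the table's name for the clock repressor Ciart, at 0.98. Tef stood at 0.97 with Dbp, and Ugp2 and Kank2 at 0.94. In colon 4 members (Hlf, Nfil3, Bhlhe41 and Rora) lay below that mean. Bhlhe40 was most like the lipid genes Fabp5 and Fasn, both at 0.97, then Park7 at 0.96. With size factors Cuta came first for Bhlhe40, at 0.97, and Fasn was no longer named. Bhlhe41 was most like Bhlhe40. Nfil3 lay nearest to Slc25a25 at 0.95, then Tmed5, Fitm2 and Ythdc2 at 0.94. Hlf lay nearest to Arhgap12, Slc5a6 and Rnf24 at 0.94, and Rora to Osbpl1a at 0.86. Of 25 such neighbours, 13 were also named with size factors.

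The loop upstream of these outputs was read from 12 core clock genes. In liver 6 of 12 were higher in DR and 2 lower (18.04% and 9.92% of all loci), against 3 higher and 6 lower in DR-AL over AL (15.04% and 15.8%), with medians of 0.49 and −0.73. Ciart, the gene most like Dbp, had 14.8, 48.7 and 3.88 CPM in liver, and Per3 had 27.9, 57.4 and 2.98. Both were lower in DR-AL than in AL, at −1.93 (−2.28 to −1.61) and −3.22 (−3.60 to −2.88). The activator arm ran opposite, as Nfil3 did, with Clock at 30.6, 17.0 and 53.8 CPM in liver and a log2 fold of −0.85 (−1.03 to −0.67) for DR over AL and 0.81 (0.68 to 0.94) for DR-AL over AL. In fat 4 of 12 were higher and 1 lower in DR (35.2% and 10.4%), and 4 higher and 6 lower in DR-AL over AL (46.04% and 11.9%). In colon the counts were 2 and 1 in DR (9.04% and 10.6%), and 3 and 4 in DR-AL over AL (5.83% and 8.50%). In hypothalamus they were 4 and 0 (4.33% and 2.72%), then 0 and 2 (6.06% and 9.02%), and in hippocampus 0 and 0 (1.36% and 2.67%), then 0 and 1 (3.99% and 2.16%). The single gene of the list that was called lower in DR-AL than in AL in 5 of 5 tissues was Ciart, at −1.93, −1.56, −1.04, −0.62 and −0.71 in the order liver, fat, colon, hypothalamus and hippocampus. Dbp was the single member called lower in 5 of 5.

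**Figure D3:**
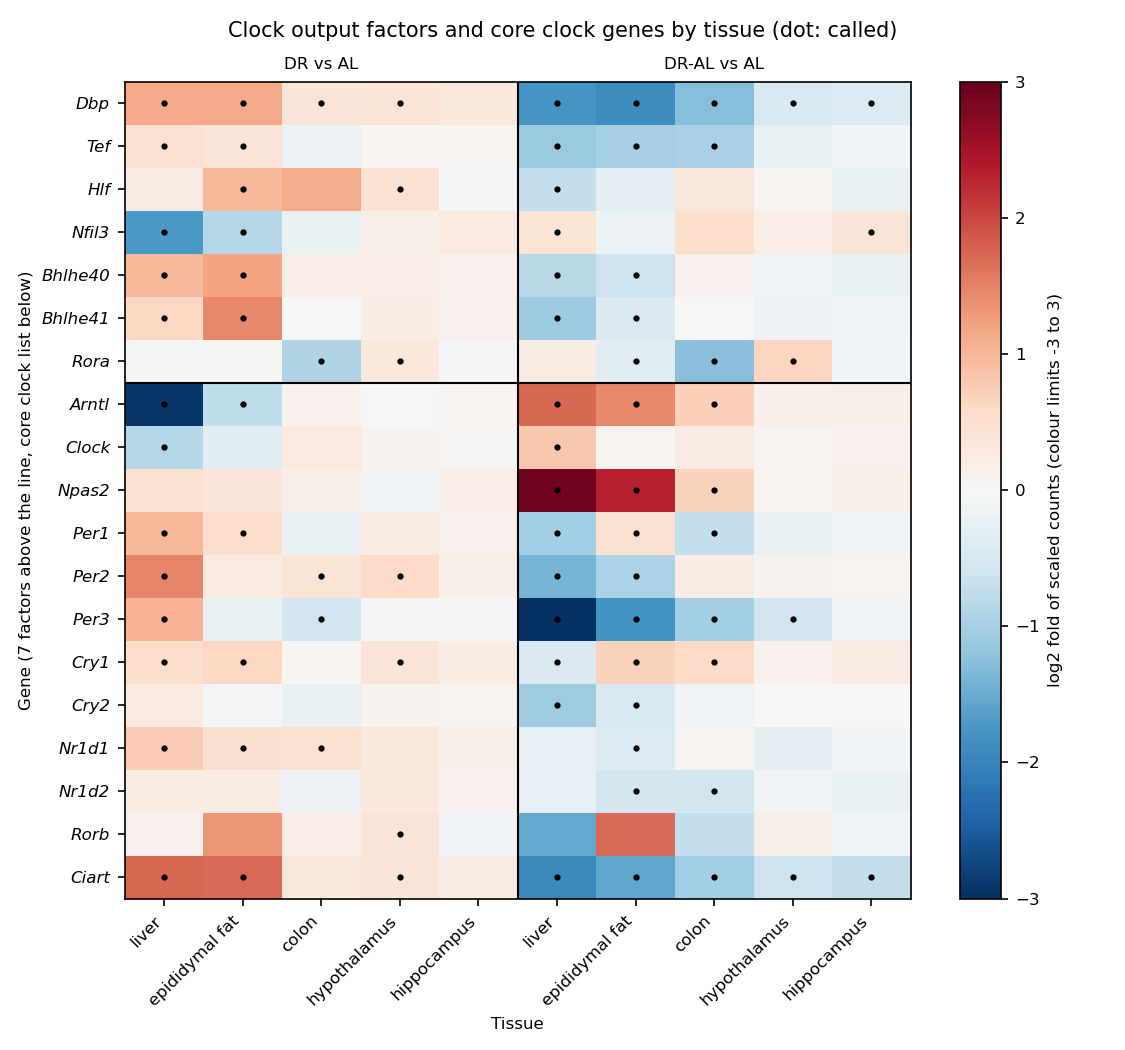
Log2 folds of the members and of the core clock genes in each tissue, for DR and for DR-AL over AL. A dot marks a call.

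Dbp, Tef and Hlf have known target genes in liver, and 12 of them were read here. In DR 6 of 12 were higher and 1 lower (18.04% and 9.92% of all loci), and in DR-AL 1 was higher and 8 lower than in AL (15.04% and 15.8%), with medians of 0.27 and −0.72. Cyp2a5, a classic Dbp target, had 1372, 3335 and 393 CPM in liver, with log2 folds of 1.28 (1.26 to 1.30) for DR over AL and −1.81 (−1.84 to −1.77) for DR-AL over AL. Reads of its near-identical copy Cyp2a4 may be shared with it. Nr1i3 had 157, 141 and 52.9 CPM and Alas1 769, 839.6 and 352, not called in DR and lower in DR-AL at −1.57 (−1.67 to −1.48) and −1.13 (−1.16 to −1.09). Other targets did not go with Dbp in liver. Pdxk was the 1 called lower in DR, at −0.48 (−0.60 to −0.37), where Dbp was higher. In DR-AL over AL Pdxk was lower, as Dbp was, at −1.38 (−1.52 to −1.25). Cyp7a1 had 285, 274 and 269 CPM in liver and was not called there in any comparison. In fat 1 of 12 targets was higher in DR and 6 lower (35.2% and 10.4%), and in DR-AL 3 were higher and 8 lower (46.04% and 11.9%). Dbp was higher in DR fat, and Cyp7a1 had 64.0, 0.307 and 0.183 CPM there, beside the hepatocyte markers that were higher in AL fat. In colon the targets were 1 higher and 3 lower in DR (9.04% and 10.6%), and 0 higher and 5 lower in DR-AL over AL (5.83% and 8.50%). In hypothalamus 0 of 10 tested were called in DR (4.33% and 2.72%), with 1 higher and 2 lower in DR-AL (6.06% and 9.02%), the lower ones on at most 28 counts in AL or DR-AL. Of the lower ones, Cyp2b10 had 3 counts in AL and 0 in DR-AL, and the upper end of its interval, 1.20, lay above 0. Cyp2a5 had 28 and 13 counts. In hippocampus the counts were 0 of 8 in either comparison (1.36% and 2.67%, then 3.99% and 2.16%).

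A further 10 genes with a daily rhythm in many tissues stood beside the members. In liver 5 of 10 were higher and 2 lower in DR (18.04% and 9.92% of all loci), and 1 higher and 7 lower in DR-AL over AL (15.04% and 15.8%), with medians of 0.34 and −0.71. Usp2 had 51.0, 92.3 and 11.4 CPM in liver, the form of Dbp, with −2.16 (−2.35 to −1.97) in DR-AL over AL. In fat it had 23.8, 81.2 and 137 CPM, and so parted from Dbp, which was lowest there in DR-AL. Testis germ cell markers had the same order of diets in fat, with sums of 6.98, 640.0 and 3056 CPM. Their part in the Usp2 value was not tested. In fat 2 of the 10 were higher and 1 lower in DR (35.2% and 10.4%), and 3 higher and 1 lower in DR-AL over AL (46.04% and 11.9%). The counts in colon, higher and lower, were 0 and 0 in DR (9.04% and 10.6%) and 1 and 2 in DR-AL (5.83% and 8.50%). They were 4 and 0 (4.33% and 2.72%) then 1 and 0 (6.06% and 9.02%) in hypothalamus, and 1 and 0 (1.36% and 2.67%) then 0 and 0 (3.99% and 2.16%) in hippocampus.

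Promoters of the members and of the core clock genes were searched for the elements named above, on both strands, from 250 bases before to 50 after each start (RefSeq, GRCm38.p6). Promoters of 6 of 7 members were found, Bhlhe40 being the one missing, and of 11 of 12 core clock genes, Per2 being missing. The E-box CACGTG was in 7.15% of all promoters, the D-box TTATGTAA in 0.938% and TTACGTAA in 0.119%. The ROR element core TAGGTCA was in 2.61% and TGGGTCA in 3.98%. Of the members, Tef and Bhlhe41 held an E-box and Nfil3 a TAGGTCA on the other strand, and these matches did not overlap. Dbp, Hlf and Rora held no match, and a second start of Tef held another E-box. Ciart, the locus most like Dbp, held 3 E-boxes. Of the other clock genes, Per1 and Cry1 held an E-box, Per3 2 copies of TTATGTAA and Arntl a TAGGTCA. The 4 promoters are shown as those of the members with a match and of the locus most like Dbp, and capitals mark the match. They lie at chr15:81802423-81802722 (Tef, + strand), chr6:145865371-145865670 (Bhlhe41, − strand), chr13:52980990-52981289 (Nfil3, − strand) and chr3:95882179-95882478 (Ciart, − strand). A match describes the letters and is not shown to be a binding site.
Tef: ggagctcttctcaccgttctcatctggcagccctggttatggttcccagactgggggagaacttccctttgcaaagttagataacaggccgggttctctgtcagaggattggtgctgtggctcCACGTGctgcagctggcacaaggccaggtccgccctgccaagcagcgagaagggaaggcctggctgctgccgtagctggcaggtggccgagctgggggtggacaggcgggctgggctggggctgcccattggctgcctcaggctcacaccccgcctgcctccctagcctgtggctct
Bhlhe41: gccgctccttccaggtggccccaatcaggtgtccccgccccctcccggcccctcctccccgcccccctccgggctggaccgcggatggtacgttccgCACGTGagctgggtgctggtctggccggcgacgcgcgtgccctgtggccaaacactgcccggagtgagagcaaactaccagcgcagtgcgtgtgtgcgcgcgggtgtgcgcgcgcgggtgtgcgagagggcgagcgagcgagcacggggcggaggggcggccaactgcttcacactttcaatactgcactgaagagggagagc
Nfil3: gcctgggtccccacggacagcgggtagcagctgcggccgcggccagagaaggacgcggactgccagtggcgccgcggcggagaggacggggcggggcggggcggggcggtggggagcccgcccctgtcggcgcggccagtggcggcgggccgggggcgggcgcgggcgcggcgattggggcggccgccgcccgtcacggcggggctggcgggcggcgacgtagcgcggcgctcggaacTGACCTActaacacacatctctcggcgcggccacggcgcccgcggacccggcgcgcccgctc
Ciart: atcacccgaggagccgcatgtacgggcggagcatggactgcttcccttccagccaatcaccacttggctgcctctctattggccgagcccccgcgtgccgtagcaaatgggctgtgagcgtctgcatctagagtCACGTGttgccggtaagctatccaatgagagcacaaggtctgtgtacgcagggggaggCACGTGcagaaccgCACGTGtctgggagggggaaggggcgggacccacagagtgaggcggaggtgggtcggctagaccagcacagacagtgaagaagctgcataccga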

How the data were processed

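RNA-Seq of 15 pooled libraries was measured by the authors with stranded, ribosome-depleted libraries. The authors made the deposited raw counts and FPKM per locus from aligned reads with duplicates removed. The submitters' notes name the build mm9 and the methods mm10. All 7 members lay on the GRCm38 chromosome and strand of their gene, but only 1 overlapped it there, so positions in the table served only to find loci that share an interval. Counts were computed to CPM on loci with a gene name, and loci without a name held 0.258% to 1.39% of counts. A name with several symbols was split at commas.

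Within a tissue the 3 diets were compared in pairs by the Z test described in the text, on loci with at least 1 count in the tissue, with 0.5 added to counts for folds and exact Clopper-Pearson intervals. Across tissues edgeR 4.0.16 (quasi-likelihood, tissue and diet) and DESeq2 1.42.0 were fitted, with limma 3.58.1 loaded, in R 4.3.3. Python 3.11.15, numpy 2.4.6, pandas 2.3.3, scipy 1.17.1 and matplotlib 3.10.9 did the rest. The Z test and the edgeR fit were tested on simulated data, and the DESeq2 fit and the exact tests in edgeR were not. Depth of 21767088 to 40500130 counts (median 26554699) means that a count of 0 allows up to 3 counts, and that members under 100 counts have wide intervals.

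Alternatives were size factors as in DESeq2, TMM, totals without the 10 most abundant loci, a mean of at least 10 counts, a fold of at least 2, an exact test in edgeR at a biological coefficient of variation (BCV) of 0.1 or 0.2 or with an estimated dispersion, FPKM with 0.1 or 1 added (called by fold alone), and, for the fit, no tissue term, no filter, each tissue left out and DESeq2. Leaving out the fat libraries from the counts of calls was added after the data were seen. The members and lists were chosen with earlier results of these data known.

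Some genes of the lists as first drawn up are not reported here. The core clock list was Arntl, Clock, Npas2, Per1, Per2, Per3, Cry1, Cry2, Nr1d1, Nr1d2, Rorb, Ciart. The target list was Pdxk, Nr1i3, Alas1, Por, Cyp2b10, Cyp2a4, Cyp2a5, Cyp2c37, Cyp7a1, Ces1g, Aldh1a1, Gsta3. The list of other rhythmic genes was Usp2, Wee1, Nampt, Klf9, Klf10, Coq10b, Lonrf3, Tsc22d3, Tspan4, Herpud1. Marker lists were, for hepatocytes, Alb, Apoa1, Apoa2, Serpina1c, Ttr, Fgb, Tat, Cyp2e1, Cps1, Ass1, for adipocytes, Adipoq, Plin1, Fabp4, Lep, Cidec, Lipe, Retn, Cfd, for colon epithelium, Cdx2, Krt20, Car1, Lypd8, Slc26a3, Muc2, Vil1, Cdx1, Lgals4, Fabp2, and for hypothalamus, Agrp, Pmch, Hcrt, Oxt, Avp, Nkx2-1, Sim1, Hdc, Trh. For hippocampus they were Prox1, Neurod6, Neurod2, Slc17a7, Wfs1, Lhx2, Emx1, for thalamus Tcf7l2, Prkcd, Plekhg1, Rgs16, Tnnt1, Lef1, for testis germ cells Prm1, Prm2, Tnp1, Tnp2, Odf1, Smcp, Akap4, Spata18, Ddx4, and for epididymis Crisp1, Lcn5, Lcn8, Adam7, Cst11, Defb15, Rnase10, Spink2. For smooth muscle they were Myh11, Actg2, Des, Cnn1, Tagln, Synpo2, for leukocytes Ptprc, Cd3e, Cd79a, Adgre1, Emr1, Csf1r, Itgam, for choroid plexus Kl, Folr1, Otx2, Kcnj13, Slc4a5, Clic6, and for blood Hbb-b1, Hba-a1, Alas2, Slc4a1.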

Additional observations from a re-analysis of the deposited data

Results flagged for a closer look

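Calls in opposite directions in different tissues picked out the following values, and none of these differences was tested. Rora in DR over AL had a log2 fold of 0.33 in hypothalamus and −0.91 in colon, and in DR-AL over AL 0.64 and −1.26. Per3 in DR over AL had 1.04 in liver and −0.57 in colon. Per1 in DR-AL over AL had 0.46 in fat and −1.01 in liver. Cry1 in DR-AL over AL had 0.69 in fat and −0.44 in liver, and in DR-AL over DR 0.50 in colon and −0.97 in liver. The values of Per1 and Cry1 in fat hold for counts scaled by totals. In AL and DR-AL fat, testis germ cell markers summed to 6.98 and 3056 CPM and hepatocyte markers to 13957 and 4122 CPM. The part of such other tissue in these 2 genes was not tested. FPKM in fat put folds of DR-AL over AL lower by a median of 1.62, more than either value, and size factors took the median of 17306 loci there from 0.34 to 0.00.

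For Rora, a technical reading is the low count in colon, where another locus holds the same interval and strand, and the thalamus markers that were higher in the DR-AL hypothalamus. A biological reading is a tissue-specific response to diet. Neither was tested.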

How the results depend on the processing

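Of the 55 calls of members, 53 kept their direction and call with size factors as in DESeq2 and 53 with TMM, 55 without the 10 most abundant loci and 55 with a mean of at least 10 counts. With FPKM 47 were kept when 0.1 was added and 45 when 1 was added. A fold of at least 2 kept 23, BCV 0.1 kept 33, BCV 0.2 kept 17 and the estimated dispersion 3. Calls were also gained among the 50 values not called, 4 with size factors and 4 with TMM (Hlf and Nfil3 in fat in DR-AL over AL, Rora in liver and hypothalamus in DR-AL over DR). Leaving out the 10 most abundant loci gained 1 (Hlf in fat, DR-AL over AL), and a mean of at least 10 counts gained 1 (Hlf in colon, DR over AL). FPKM gained 8 with 0.1 added, among them Dbp in hippocampus in DR over AL, and 5 with 1 added. These gains leave out Rora in fat in DR over AL, which turned direction and passed the fold threshold with either addition. Only 2 of the 55 were called under all 10 alternatives, Dbp in DR-AL against DR in liver and in colon.

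The counts of calls moved as follows, and the cause was not tested unless the alternative's construction shows it (stricter thresholds, fewer libraries). For DR over AL the 13 higher became 4 at fold 2, 6 at BCV 0.1, 3 at BCV 0.2, 0 with the estimated dispersion and 8 without fat. The 3 lower became 1 at fold 2, 1 at BCV 0.2, 0 with the estimated dispersion and 5 with FPKM and 0.1 added. For DR-AL over AL the 3 higher became 0 at fold 2, 0 at BCV 0.1, 0 at BCV 0.2 and 0 with the estimated dispersion. The 15 lower became 7 at fold 2, 2 at BCV 0.2 and 0 with the estimated dispersion. For DR-AL over DR the 3 higher became 5 with size factors, 5 with TMM, 1 at fold 2, 1 at BCV 0.2 and 0 with the estimated dispersion. The 18 lower became 10 at fold 2, 10 at BCV 0.2 and 3 with the estimated dispersion. The fit over 15 libraries called 0 members between DR-AL and DR in edgeR and 1 in DESeq2. Of 25 neighbours by likeness 13 were named with size factors.

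The direction changed in fat with FPKM for 3 values that were called in at least 1 of the units, and the cause was not tested. Tef in DR over AL went from 0.39 to −0.33 with 0.1 added and −0.33 with 1 added. Nfil3 in DR-AL over DR went from 0.71 to −0.0943 and −0.0458. Rora in DR over AL, not called with totals, went from 0.05 to −0.56 and −0.45, both past the fold threshold. It also fell below 0 with size factors and TMM. A further 9 values that were not called changed sign with FPKM, in hippocampus (Tef and Bhlhe41 in DR-AL over AL, Hlf in DR over AL, and Rora in all 3 comparisons) and in colon (Bhlhe41 in DR and in DR-AL over AL, and Bhlhe40 in DR-AL over DR).

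The estimated BCV was 0.312 in liver, 0.762 in fat, 0.164 in colon, 0.124 in hypothalamus and 0.0703 in hippocampus. It takes the 3 diets of a tissue as replicates and so holds any effect of diet. Depth limits Hlf, Bhlhe41, Nfil3 and Rora in colon most, where counts were lowest.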

Other observations

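Marker lists for cells carried along with a tissue were summed in each library as CPM, in AL, DR and DR-AL. Smooth muscle markers summed to 11.5, 25.2 and 26.8 in liver, 29.9, 54.9 and 51.1 in hypothalamus and 32.6, 34.2 and 41.8 in hippocampus. Leukocyte markers summed to 37.8, 29.8 and 33.5 in liver, 119.8, 155 and 137 in epididymal fat, 19.4, 9.19 and 30.9 in colon, 108, 104 and 90.5 in hypothalamus and 107, 107 and 114 in hippocampus. Choroid plexus markers summed to 68.7, 65.3 and 47.4 in hypothalamus and 233, 148 and 257 in hippocampus. Blood markers summed to 219, 139 and 165 in liver, 355, 173 and 212 in epididymal fat, 9.30, 4.22 and 5.23 in colon, 82.4, 42.5 and 27.0 in hypothalamus and 45.4, 23.4 and 21.9 in hippocampus. Their part in the values of the members was not tested.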
